A study of Arabidopsis thaliana with 11 samples.

Results

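The genes described are 10 loci of the flavonoid and proanthocyanidin pathway of Arabidopsis thaliana, chosen by locus identifier out of 32627 loci on the array. They are 8 enzyme genes and 2 regulator genes, and each locus had 1 feature, that is, 1 set of 3 or 4 probes summarised to 1 value. Transcripts were measured in etiolated (dark-grown) hypocotyls, the embryonic stems of seedlings, of accession Columbia. The group labelled atpme3-1, a loss-of-function mutant per the labels, had 5 arrays, with replicate numbers 1, 2, 3, 5 and 6. The wild type had 6 arrays, with numbers 1 to 6. No labelled mutant array with number 4 is among the samples. PME3 encodes a pectin methylesterase, which removes methyl groups from cell wall pectin, and the comparison asks how transcripts differ where that gene is disrupted. In both groups, seeds had 3 days of darkness at 4 °C, then 6 h of white light at 20 °C, then 4 days of darkness, so the hypocotyls were 96 h old. Each replicate was collected on its own and pooled about 300 hypocotyls. RNA labelled with Cy3 was hybridised to single-colour NimbleGen arrays.

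Flavonoids are phenolic compounds that plants use as ultraviolet screens, pigments and antioxidants. Chalcone synthase joins a phenylpropanoid unit to malonyl units, and chalcone isomerase and flavanone 3-hydroxylase turn the product into dihydroflavonols. There the pathway divides. Flavonol synthase leads to flavonols, while dihydroflavonol reductase and leucoanthocyanidin dioxygenase lead to anthocyanidins. Anthocyanidin reductase then draws anthocyanidins into proanthocyanidins, the tannins that colour the Arabidopsis seed coat brown. Loss of most of these genes gives pale seeds, the transparent testa (TT) phenotype. Complexes of a MYB factor, a bHLH factor and the WD40 protein TTG1 switch on the late enzymes.

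The gene that names the mutant was measured as a check of the labels. PME3 (AT3G14310) was higher, not lower, on the labelled mutant arrays, with log2 intensities of 14.41 ± 0.02 (SD, n = 5) against 13.81 ± 0.06 for wild-type arrays (SD, n = 6). Its log2 fold change of 0.61 ± 0.040 (SE) had a limma adjusted p of 4.91e-07. So far as these probes go, the level runs against a loss of function. No source used here gives the positions of the probes or of the mutation, and a probe set that lies outside the disrupted stretch would check nothing. The arrays are called labelled mutant for this reason, and the label decides every direction that follows. Over all features, correlations ran from 0.985 to 0.998 within a group and from 0.966 to 0.982 between groups. Among the wild-type arrays, those whose numbers lie 3 apart (1 and 4, 2 and 5, 3 and 6) deviated from their group mean together, with correlations of 0.18 to 0.69 over all features in these 3 pairs and of -0.81 to 0.04 in the 12 other pairs. In the 2 such pairs of labelled mutant arrays the correlation was 0.03 and 0.07, and in the other labelled mutant pairs it ran from -0.63 to 0.15. No source used here says what links these arrays, so the calls that end when such arrays are averaged are named with the results.

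All 8 enzyme genes were higher on the labelled mutant arrays, and neither regulator gene, TT8 or TT2, passed the test in either direction. A gene was called at a limma adjusted p under 0.05 over all 37118 features. Of all features 18.8% were called higher and 13.6% lower, so that 32.4% were called in all. The median log2 fold change over the 10 genes was 0.53, and over all features it was 0.04. The groups did not overlap on any array for TT4, F3H, F3'H, FLS1 and BAN, where 10.3% of all features had every labelled mutant array above every wild-type array. RNA of whole hypocotyls cannot tell more RNA per cell from more cells of a type that carries it. For 0 of the 10 genes did every labelled mutant array lie below the wild type, as 9.35% of all features did. With a fold of at least 1.5 also required, 4 of the 10 genes were called higher (F3'H, FLS1, DFR and LDOX), and 3.41% of all features were. After arrays whose numbers lie 3 apart were averaged, 4 of the 10 were called higher, namely TT4, F3'H, FLS1 and BAN, and 10.6% of all features were. Leaving out wild type 2 and 5 gave 8 of the 10 (13.7% of all features), leaving out wild type 1 and 4 gave 7 (14.7%), and leaving out wild type 3 and 6 gave 7 (19.9%). The pairs to leave out were chosen after the data were seen, here and for the single genes below.

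**Figure D1:**
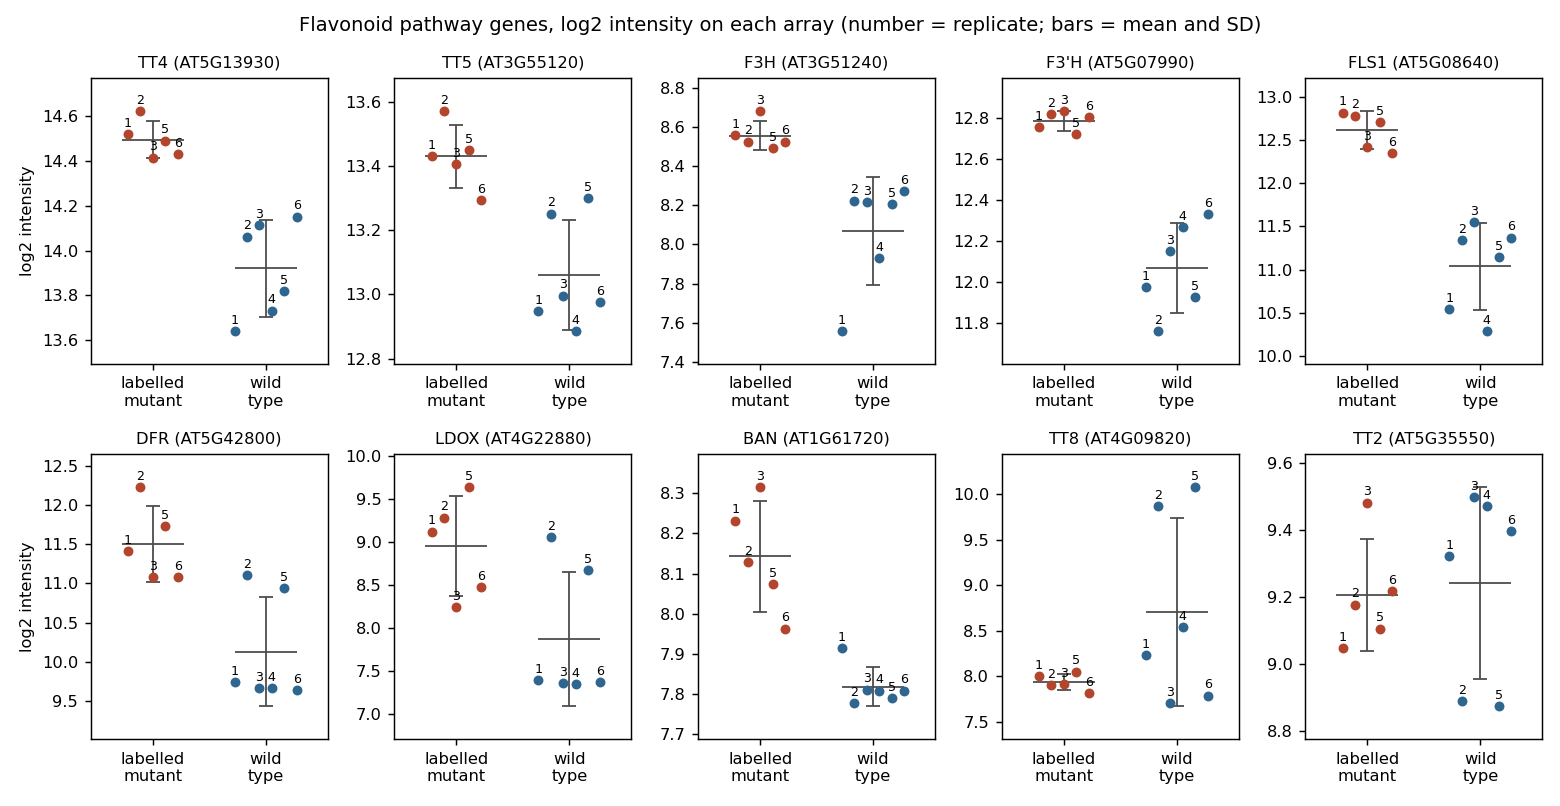
Log2 intensity of the 10 genes on each array, with the labelled mutant (n = 5) left and the wild type (n = 6) right in each panel; digits are replicate numbers, and the lines are the mean and SD. The vertical axes differ between panels and do not start at 0. For TT4, F3H, F3'H, FLS1 and BAN every labelled mutant point lies above every wild-type point, while DFR overlaps through wild type 2 and LDOX through wild type 2 and 5.

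TT4 (AT5G13930) encodes chalcone synthase, the entry enzyme of the pathway. Its log2 intensity was 14.52, 14.62, 14.41, 14.49 and 14.43 on labelled mutant arrays 1, 2, 3, 5 and 6, and in wild type it was lowest at 13.64, had a median of 13.94 and was highest at 14.15. Every labelled mutant array lay above every wild-type array, and the lowest wild-type arrays were 1 and 4. The group means were 14.49 ± 0.08 (SD, n = 5) and 13.92 ± 0.22 (SD, n = 6), so that TT4 rose by 0.57 ± 0.096 (SE) in log2 units, or 1.49-fold (limma adjusted p = 0.000954).

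TT5 (AT3G55120) encodes chalcone isomerase, which closes the ring of the chalcone. It stood at 13.43, 13.57, 13.41, 13.45 and 13.29 on the labelled mutant arrays in the same order, against a lowest value of 12.89, a median of 12.99 and a highest of 13.30 in wild type. Wild type 2 and 5 were the highest of their group, and wild type 5 reached labelled mutant 6, so the groups touched. The rise was 0.37 ± 0.083 (SE) on the log2 scale, or 1.29-fold (limma adjusted p = 0.00598). With arrays whose numbers lie 3 apart averaged, the fold change was 0.37 and the adjusted p 0.0551.

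F3H (AT3G51240) encodes flavanone 3-hydroxylase, which makes dihydroflavonols. The labelled mutant arrays gave 8.56, 8.52, 8.68, 8.49 and 8.52, and the wild-type arrays ran between 7.56 and 8.27 with a median of 8.21. No wild-type array reached the labelled mutant range, and wild type 1 was the lowest of its group. F3H rose by 0.49 ± 0.12 (SE) on the log2 scale, or 1.40-fold (limma adjusted p = 0.00903), and with arrays 3 numbers apart averaged it was 0.49 with an adjusted p of 0.0558. F3H was among the 25% of features with the lowest mean, which ended at a log2 intensity of 9.18.

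F3'H (AT5G07990), also called TT7, encodes the hydroxylase that adds a hydroxyl group to the B ring and so sets the balance between quercetin and kaempferol types. Its values were 12.75, 12.82, 12.83, 12.72 and 12.80 on the labelled mutant arrays and, in wild type, 11.76 at the lowest, 12.06 at the median and 12.33 at the highest. The groups were well apart, and the labelled mutant arrays lay close together. F3'H rose by 0.72 ± 0.093 (SE) on the log2 scale, or 1.64-fold (limma adjusted p = 0.000158).

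FLS1 (AT5G08640) encodes the main flavonol synthase of Arabidopsis, which draws dihydroflavonols into flavonols. Log2 intensity was 12.81, 12.78, 12.42, 12.71 and 12.35 on the labelled mutant arrays, and 10.29, 11.24 and 11.55 at the lowest, median and highest wild-type array. The labelled mutant range lay wholly above the wild-type range, where wild type 1 and 4 were again lowest. The means were 12.61 ± 0.22 (SD, n = 5) and 11.04 ± 0.50 (SD, n = 6), a log2 fold change of 1.57 ± 0.22 (SE), or 2.98-fold (95% interval 2.14 to 4.14), with a limma adjusted p of 0.000242.

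DFR (AT5G42800) encodes dihydroflavonol reductase, which competes with flavonol synthase for dihydroflavonols. It was measured at 11.41, 12.23, 11.08, 11.73 and 11.08 on the labelled mutant arrays, against 9.64 to 11.10 with a median of 9.71 in wild type. The wild type itself fell into separate levels, with arrays 2 and 5 at a mean of 11.02, arrays 1 and 4 at 9.71, and arrays 3 and 6 at 9.65. Wild type 2 slightly exceeded labelled mutant 3 and 6. DFR rose by 1.38 ± 0.33 (SE) on the log2 scale, or 2.60-fold (95% interval 1.58 to 4.28), with a limma adjusted p of 0.00834. Averaging arrays 3 numbers apart gave 1.36 with an adjusted p of 0.0679, and leaving out a pair of wild-type arrays gave 1.83 (without 2 and 5), 1.17 (without 1 and 4, adjusted p = 0.0453) and 1.14 (without 3 and 6, adjusted p = 0.0335).

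LDOX (AT4G22880) encodes leucoanthocyanidin dioxygenase, which forms the coloured anthocyanidins. The labelled mutant arrays had 9.12, 9.29, 8.24, 9.64 and 8.47, and the wild type had 7.34 at the lowest, 7.38 at the median and 9.05 at the highest. As with DFR, wild type 2 and 5 stood apart at a mean of 8.86, while the pairs 1 and 4 and 3 and 6 both averaged 7.37. LDOX rose by 1.09 ± 0.38 (SE) on the log2 scale, or 2.12-fold, just inside the threshold with a limma adjusted p of 0.0453. That call was lost in 12 of 24 alternatives, among them 7 of the 11 fits without 1 array, where adjusted p lay between 0.0790 and 0.103 (without labelled mutant 1, 2 or 5, or without wild type 1, 3, 4 or 6). Averaging arrays 3 numbers apart gave 1.11 with an adjusted p of 0.149. LDOX became 1.58 with an adjusted p of 0.00154 without wild type 2 and 5, 0.84 with 0.169 without wild type 1 and 4, and 0.84 with 0.145 without wild type 3 and 6.

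BAN (AT1G61720) encodes anthocyanidin reductase, the enzyme that commits anthocyanidins to proanthocyanidins. Its signal was 8.23, 8.13, 8.32, 8.07 and 7.96 on the labelled mutant arrays, against 7.78, 7.81 and 7.92 at the lowest, median and highest wild-type array. The ranges did not overlap, although labelled mutant 6 and wild type 1 came close to each other. The log2 fold change was the smallest of the 8 enzyme genes, at 0.32 ± 0.061 (SE), or 1.25-fold (limma adjusted p = 0.00207). BAN, like F3H, LDOX and TT8, was among the dimmest 25% of features, and no detection calls accompany the values.

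**Figure D2:**
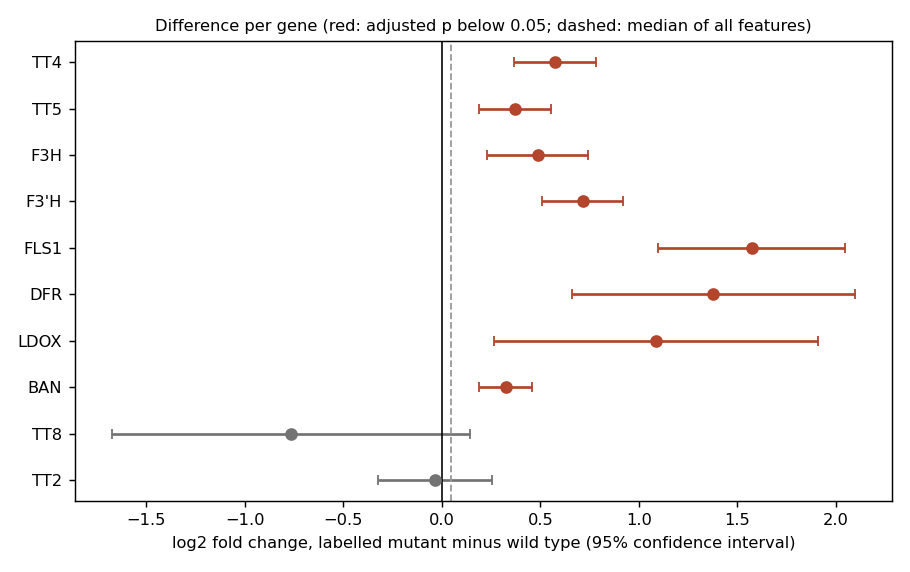
Log2 fold change, labelled mutant minus wild type, of each gene with its 95% confidence interval from limma (n = 5 and 6 arrays); red marks an adjusted p below 0.05, and the dashed line is the median of all features, 0.04. The 8 enzyme genes lie right of 0, from 0.32 for BAN to 1.57 for FLS1, and the intervals of TT8 and TT2 include 0.

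TT8 (AT4G09820) encodes the bHLH factor that acts on DFR and BAN. It stood at 8.00, 7.90, 7.91, 8.05 and 7.81 on the labelled mutant arrays and ran from 7.70 in wild type 3 to 10.08 in wild type 5, with a wild-type median of 8.39. The 5 labelled mutant arrays were close together and low, whereas the wild-type pairs averaged 8.39 (1 and 4), 9.97 (2 and 5) and 7.74 (3 and 6). The difference of -0.77 ± 0.42 (SE, 95% interval -1.67 to 0.14) was not called (limma adjusted p = 0.176). Without wild type 2 and 5 it was -0.13, and without wild type 3 and 6 it was -1.24 with an adjusted p of 0.0227.

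TT2 (AT5G35550) encodes the MYB factor that pairs with TT8 in the seed coat and gives the complex its specificity for BAN. Its values were 9.05, 9.18, 9.48, 9.10 and 9.22 on the labelled mutant arrays, and 8.87, 9.36 and 9.50 at the lowest, median and highest wild-type array. The groups overlapped fully. The log2 difference was -0.04 ± 0.13 (SE, 95% interval -0.33 to 0.25), with a limma adjusted p of 0.856 and a sign that turned in some alternatives.

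The 10 genes did not vary in the same way among wild-type arrays. TT4, F3H and FLS1 were lowest in wild type 1 and 4, with pair means of 13.69, 7.75 and 10.42, while wild type 3 and 6 had 14.13, 8.24 and 11.46. TT5, DFR, LDOX and TT8 were highest in wild type 2 and 5. F3'H and TT2 ran the other way, with their lowest pair means, 11.85 and 8.88, in wild type 2 and 5. Among the labelled mutant arrays DFR and LDOX also varied most, and both were lowest in labelled mutant 3 and 6. TT5, DFR and LDOX were highest in labelled mutant 2 and 5, the same numbers as in wild type. The summed intensity of 6 green tissue genes (RBCS1A, RBCS1B, LHCB1.1, LHCB2.1, LHCB4.1 and LHCA1) was also highest in wild type 2 and 5. In log2 terms these arrays stood 0.40 and 0.51 above the wild-type mean of the list. The genes did not rise alike: LHCB1.1 was at 11.50 and 11.42 there, against a wild-type mean of 9.92. LHCB4.1 was below its mean of 13.97 in wild type 2, at 13.89. RBCS1A was just below its mean of 14.85 in wild type 5, at 14.84. The part of that marker list in the DFR, LDOX and TT8 levels was not tested.

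**Figure D3:**
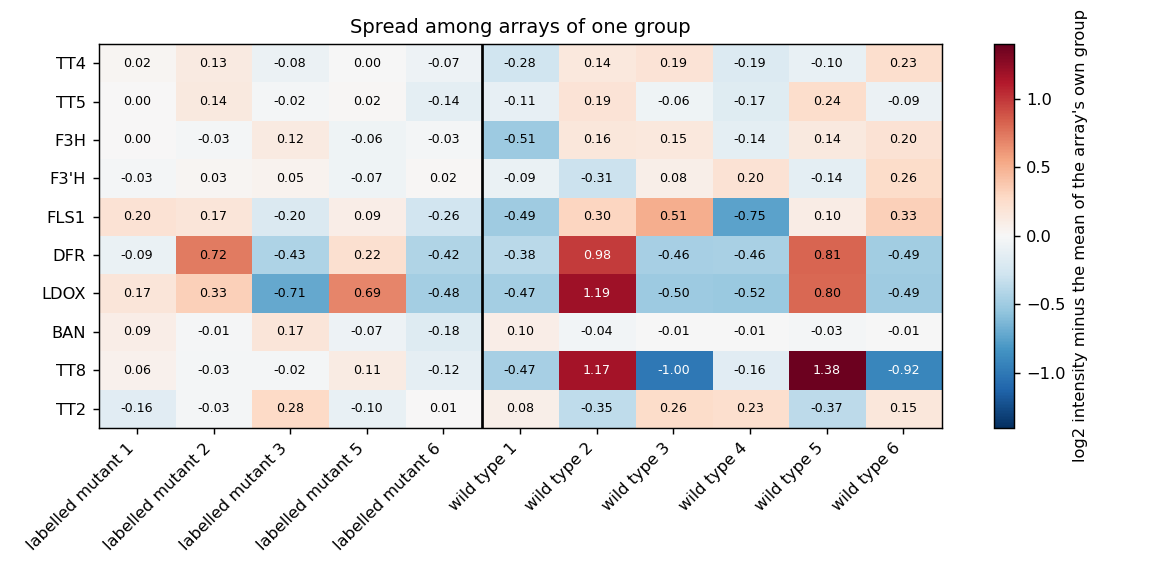
Deviation of each gene from the mean of the array's own group, in log2 units, for the 5 labelled mutant arrays left of the line and the 6 wild-type arrays right of it; red is above and blue below the group mean. DFR, LDOX and TT8 are well above their group mean in wild type 2 and 5, and FLS1 is below it in wild type 1 and 4.

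The enzyme genes also differed in how far they rose. For each pair of the 8 enzyme genes, a comparison chosen after their values were seen, the log2 ratio of both genes was taken on each array and compared between the groups by an exact two-sided permutation test. The test has 462 splits and a smallest p of 0.00433. Of 28 pairs 6 had a p below 0.05 after adjustment over the pairs, and FLS1 was in 5 of them. The test takes the 11 arrays as independent; with arrays 3 numbers apart averaged, 3 values stand against 3 and no exact two-sided p can be below 0.1, which each of these 6 pairs gave, with differences between 0.37 and 1.27. FLS1 rose more than TT4 by 1.00 (95% interval 0.64 to 1.36), than TT5 by 1.20 (0.73 to 1.68), than F3H by 1.09 (interval from 0.68) and than BAN by 1.25 (0.67 to 1.83), each with an exact p of 0.00433 and an adjusted p of 0.0303. FLS1 rose more than F3'H by 0.86 (0.23 to 1.49), and F3'H more than BAN by 0.39 (0.14 to 0.65), each with an exact p of 0.00866 and an adjusted p of 0.0404. The gap between FLS1 and DFR, the enzymes on either side of the branch, was 0.19 with an interval of -0.62 to 1.01 (exact permutation adjusted p = 0.615), which leaves room for a clear difference in either direction. F3H and BAN are dim and TT4 is bright, at percentile 94.5 of the feature means. How fully the probes of these genes report a change was not tested. DFR exceeded LDOX by 0.29 (-0.05 to 0.64), with an adjusted p of 0.173 by the same exact test.

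Beyond these 10 genes, 58 genes of the wider pathway were grouped by role into 7 lists. Of these 17 were higher, 4 were lower and 37 were not called, with a median log2 fold change of 0.13. With 1 feature per locus, 19.4% of all loci were higher and 13.1% lower, and their median was 0.05. Each list count that follows is to be read beside these shares. With arrays 3 numbers apart averaged, 9 of the 58 were higher and 1 was lower, and 10.6% of all features were higher. That averaging ended the calls of PAL1, PAL2, PAL4, AT1G06000, AT4G14090, MYB11, HYH, TTG1, PAP2, LBD37 and CPC, with adjusted p from 0.0524 (LBD37) to 0.148 (HYH). Several of these were near the threshold in other ways: the calls of HYH, CPC, PAL1, PAL2, AT4G14090, PAP2 and MYB11 were each lost in 9 to 13 of the 24 to 26 alternatives computed for them.

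Upstream, 4 of 8 phenylpropanoid supply genes were higher and 0 were lower, with a median of 0.10. The rise was uneven within the list. 4CL3 (AT1G65060), the 4-coumarate:CoA ligase that feeds flavonoids, was at 13.53, 13.30, 13.34, 13.41 and 13.15 on the labelled mutant arrays and between 11.80 and 12.32 in wild type, with a median of 12.08. The ranges were far apart, and 4CL3 rose by 1.28 ± 0.10 (SE) in log2 units, or 2.43-fold (limma adjusted p = 2.90e-06). The phenylalanine ammonia-lyase genes PAL4 (0.16), PAL2 (0.15) and PAL1 (0.16, named after its values were seen), which supply all phenylpropanoids, had smaller fold changes. C4H, 4CL1, 4CL2 and PAL3 lay between -0.04 and 0.06 and were not called.

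Among 6 paralogs of the flavonoid enzymes 2 were higher and 1 was lower, with a median of 0.18. CHIL (AT5G05270), a chalcone isomerase-like protein that makes chalcone synthase more specific, stood at 13.85, 13.92, 13.71, 13.78 and 13.62 on the labelled mutant arrays, above the wild-type range of 12.08 to 13.22 (median 12.96). Its log2 fold change was 0.99 ± 0.18 (SE), with a limma adjusted p of 0.00155, and averaging the features of the locus gave 0.62. Wild type 1 and 4 were its lowest arrays, as for TT4, F3H and FLS1. FLS2 (0.28) was higher and FLS5 (-0.46) lower. FLS2 was dim, at percentile 6.02 of the feature means, and its call was lost in 5 of 24 alternatives. Both are tandem copies related to FLS1, and cross-hybridisation between them was not checked.

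Of 7 genes that decorate flavonols with sugars or methyl groups 2 were higher and 0 lower, with a median of 0.17. They were UGT78D3, a flavonol arabinosyltransferase (0.65 ± 0.17 SE), and AT1G06000 (0.26). UGT78D3 was among the dimmest 25% of features. Of 8 genes of anthocyanin decoration and transport 3 were higher and 0 lower, with a median of 0.32. TT19 (AT5G17220) encodes a glutathione S-transferase needed to bring anthocyanins and proanthocyanidin precursors to the vacuole. It had 11.57, 12.07, 11.19, 11.56 and 11.06 on the labelled mutant arrays, against 8.18, 8.53 and 10.31 at the lowest, median and highest wild-type array. All labelled mutant arrays lay above the wild type, where arrays 2 and 5 were again the highest. The log2 fold change of 2.56 ± 0.39 (SE), or 5.90-fold (limma adjusted p = 0.000495), was the largest of the 68 pathway genes measured. The malonyltransferase gene AT5MAT (0.89 ± 0.17 SE) and AT4G14090 (0.37) also rose.

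The next list holds genes of proanthocyanidin transport and seed coat tannin, among them the regulator genes TT1, TT16 and TTG2. Of its 8 genes 0 were called in either direction, with a median of 0.03. TT12, TT1 and TT16, 3 of the 8, were among the dimmest 25% of features. The lowest p belonged to AHA10, a proton pump gene of the seed coat endothelium, at -0.19 (limma adjusted p = 0.0620). TT12, the transporter that loads proanthocyanidin precursors into the vacuole, was at 8.88 ± 0.22 (SD, n = 5) against 8.81 ± 0.14 in wild type (SD, n = 6), and TT10, the laccase that browns the tannins, differed by -0.34. Both were named after their values were seen. Whether the list differs from the enzyme genes was not tested. None of 6 seed coat genes was called, and their summed intensity was 99167 to 108492 on labelled mutant arrays and 98309 to 106335 in wild type. MUM4, MUM2, ARA12 and BXL1 were bright, with mean percentiles of 96.1 to 99.5 among all features, while PER36 was among the dimmest 25%. How far these sums report seed coat material was not tested.

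**Figure D4:**
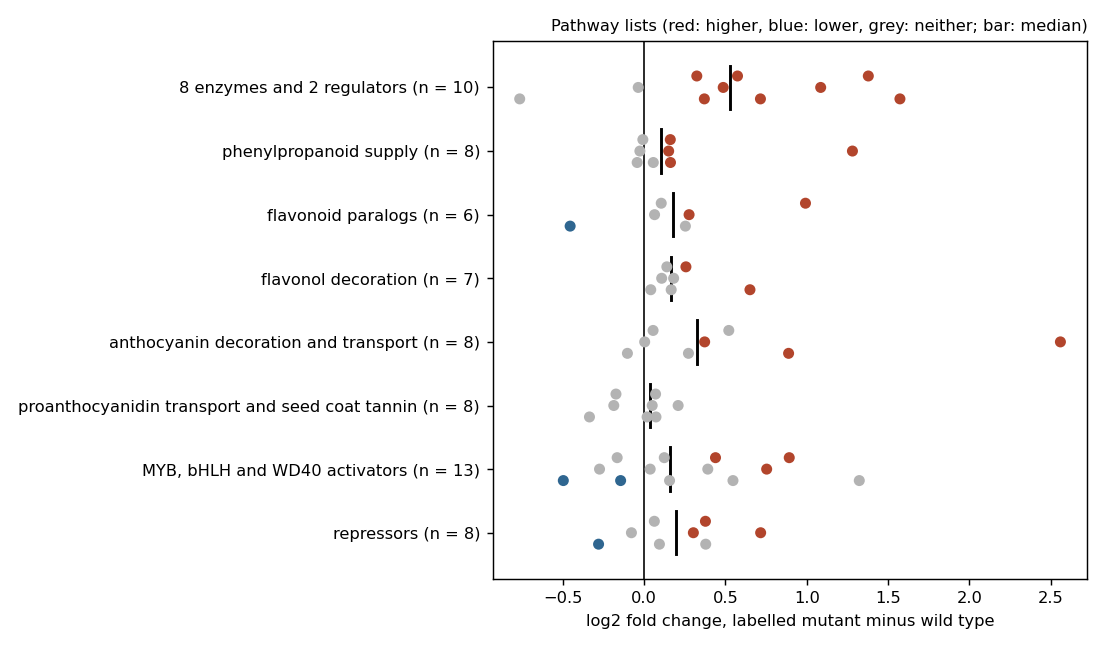
Log2 fold change, labelled mutant minus wild type, of each gene in the 8 enzymes and 2 regulators and in 7 further pathway lists; n is the number of genes, red is called higher, blue called lower, grey neither, and the bar is the median. The medians are 0.53 in the top row and between 0.03 and 0.32 in the lists.

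Among 13 activator genes 3 were higher and 2 lower, with a median of 0.16. Of all loci 19.4% were higher and 13.1% lower, so these counts are near the shares over the whole array. EGL3, a bHLH partner that acts like TT8 in seedlings, rose by 0.44 ± 0.068 (SE) with a limma adjusted p of 0.000566. Its groups did not overlap, as in 10.3% of all features with the labelled mutant higher. MYB11 (0.89 ± 0.28 SE), a MYB activator of flavonol genes, and HYH (0.75 ± 0.26 SE), a bZIP homologue of HY5, were also higher. The other flavonol MYB genes MYB12 (-0.17) and MYB111 (0.39) were not called, nor was the light-signalling factor HY5 (-0.27), all 3 named after their values were seen. TTG1, the WD40 partner, was lower by -0.14 in its brightest feature, while the average of its features gave 0.16. PAP2, an anthocyanin MYB gene with tandem copies, was lower by -0.50 in the dimmest 25% of features.

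PAP1 (AT1G56650), the MYB activator of anthocyanin genes, was named after its values were seen. It was at 11.13, 11.24, 10.53, 11.38 and 10.45 on the labelled mutant arrays, and in wild type at 8.57, 9.09 and 11.14 for the lowest, median and highest array. Wild type 2 and 5 lay within the labelled mutant range and the other 4 wild-type arrays below it. The log2 difference was 1.32 ± 0.48 (SE) and was not called (limma adjusted p = 0.0551). Without wild type 2 and 5 it was 2.05 with an adjusted p of 8.88e-05. Without 1 and 4 it was 0.86 with 0.208, and without 3 and 6 it was 1.06 with 0.163. These pairs were chosen after the data were seen. Leaving out the 2 arrays that overlap the labelled mutant lowers the p by choice, so that p is no test of PAP1.

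**Figure D5:**
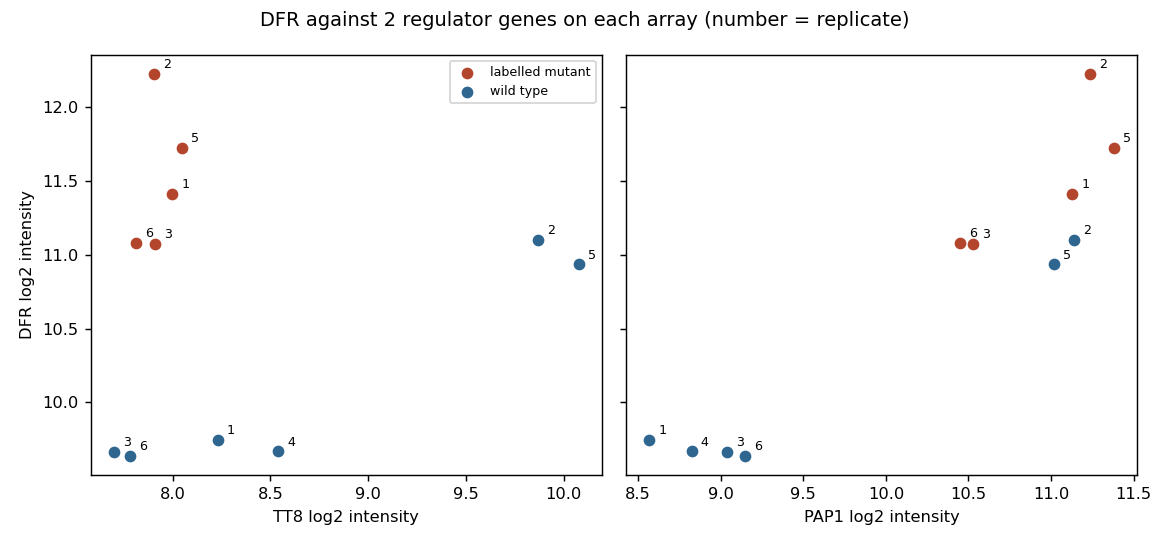
DFR against TT8 (left) and against PAP1 (right), log2 intensity on each array, for 5 labelled mutant arrays (red) and 6 wild-type arrays (blue); digits are replicate numbers. Wild type 2 and 5 have TT8 near 10 and DFR near 11, while all labelled mutant arrays have DFR at 11.08 or above with TT8 between 7.81 and 8.05.

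Of 8 repressor genes 3 were higher and 1 was lower, with a median of 0.20, where 19.4% of all loci were higher and 13.1% lower. The higher genes were LBD39 (0.72 ± 0.11 SE), LBD38 (0.38) and LBD37 (0.30), nitrate-responsive factors that hold back anthocyanin genes. In each the groups did not overlap, and 10.3% of all features had every labelled mutant array above every wild-type array. CPC, a single-repeat MYB known for root hair fate that competes with the activators, was lower (-0.28, limma adjusted p = 0.0441). MYBL2, MYB4, SPL9 and COP1 were not called.

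Embryo reserve and root hair markers moved with the groups. Of 7 embryo reserve genes 6 were higher on labelled mutant arrays, where 19.4% of all loci were, and EM6 at 2.48 had the lowest p. The summed intensity of the 7 genes was 99167 to 126018 against 45707 to 65932 in wild type. All 7 root hair genes were lower, where 13.1% of all loci were, with RSL4 at -2.25. Their sums were 5658 to 24998 against 40715 to 72137. In wild type 2 and 5 embryo reserve genes lay 0.36 and 0.50 below the wild-type mean (log2) and root hair genes 0.57 and 0.58 above it, while DFR, LDOX, TT8 and PAP1 were at their highest wild-type levels. Of the 6 green tissue genes 2 were higher, RBCS1B at 0.44 and LHCB4.1 at 0.20, where 19.4% of all loci were. The LHCB4.1 call was lost in 13 of 26 alternatives. LHCB2.1 (-0.55), LHCB1.1 (-0.36) and LHCA1 (-0.22) ran the other way without a call, and the median of the 6 was -0.11. The sums of the green tissue genes were 74408 to 83546 on labelled mutant arrays and 71930 to 90454 in wild type. The dark-grown seedling gene PORA, which encodes a protochlorophyllide reductase of etiolated tissue, was strong in both groups, at 14.96 ± 0.11 (SD, n = 5) and 15.02 ± 0.17 (SD, n = 6). No marker gene was listed at 0. The part of these markers in the pathway results was not tested.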

How the data were processed

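The deposited intensity values are linear and number 1 per feature on each array; they were made with RMA, per the submitters' processing notes. No source used here gives its version, its settings or the array's genome build. RMA as generally run makes array distributions equal, so values are relative to other genes; median intensity per array lay between 3776 and 3909. A deposited value table held the same intensities. Symbols came from a RefSeq table of TAIR10.1, which held 31993 of the 32627 loci.

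Intensities were log2-transformed and fitted with limma 3.58.1 in R 4.3.3 (lmFit, eBayes), all features and arrays, no covariate, Benjamini-Hochberg adjustment. A fold change is the labelled mutant mean less the wild-type mean, with limma's standard error. Exact permutation tests used scipy 1.17.1. The feature of highest mean stood for a gene. The members and lists were chosen with earlier results of these data known. From each list up to 3 higher and 3 lower genes of lowest p were named, and from a list with none its gene of lowest p; any other name completes a list or was chosen after its values were seen. Lists were described by counts and medians, without a set test. Scripts were tested on simulated data. The number of arrays limits the precision. Sequences were not used here.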

Additional observations from a re-analysis of the deposited data

Results flagged for a closer look

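Of 92 groups of arrays examined, 4 held a single array far from the others, where chance gives about 1 in 20. BAN stood at 7.92 in wild type 1, whereas the remaining wild-type arrays had 7.78 to 7.81. TTG1 was 13.56 in wild type 2 and 13.40 to 13.45 in the others. GATL5, a seed coat gene, was 13.14 on labelled mutant array 6 and 13.22 to 13.24 on the others, and TT10 was 8.67 on labelled mutant array 5 and 9.36 to 9.49 on the others. Values are log2 intensities.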

How the results depend on the processing

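The fold changes of TT4, F3'H, FLS1 and BAN kept their call under every alternative that could be computed for them other than the stricter call rules; with a fold of at least 1.5, TT4 and BAN lost it. The 8 enzyme genes called higher became 5 without the dimmest 25% of features, 3 without the dimmest 50%, 4 with arrays 3 numbers apart averaged and 4 with a fold of at least 1.5; the filters remove genes from the test. Leaving out wild type 3 and 6 called 1 of the 10 genes, TT8, lower. Without 1 array in turn 7 to 8 were higher and 0 lower. Of the 58 further genes, 21 were called. The count was 13 without the dimmest 50% (10 higher), 10 with the averaging (9 higher, 1 lower), 8 with the fold rule (8 higher, 0 lower) and 9 at an adjusted p under 0.01 (8 higher, 1 lower). Without wild type 1 and 4, 11 were higher, and without wild type 2 and 5, 1 was lower. Of all features 10.6% were higher with the averaging, 3.41% with the fold rule and 14.7% without wild type 1 and 4. Without 1 array in turn 14 to 21 were called, 11 to 19 higher (11 without labelled mutant 1) and 2 to 5 lower. Over all features, same-numbered arrays deviated with correlations of -0.06 to 0.29, above 0.1 in 1 of 5 pairs. Of 10 arrays 2 correlated best with their own number. DFR, LDOX, TT5 and PAP1, however, were each highest in arrays 2 and 5 of both groups. With the number as a block, which leaves out wild type 4, the SE was 0.13 for DFR and 0.19 for LDOX. In the main fit it was 0.33 and 0.38. Whether same-numbered arrays share more than a label was not tested. With the replicate number as a block, 8 of the 10 genes were higher, and 16 of the 58 were called, 2 of them lower. No share of all features was computed for the block, the fits without 1 array, the dim filters or the stricter adjusted p. Lower calls under the alternatives have no such share either, so whether these counts are unusual was not tested. Signs turned only where no call was made, except for TTG1. TT2 became 0.00964 with the block and without wild type 4, 0.00313 without labelled mutant 1, 0.015 without wild type 3, 0.041 without wild type 1 and 4, and 0.066 without wild type 3 and 6; without 1 array in turn it ran from -0.11 to 0.015. TTG1 was 0.16 and PORA 0.10 with averaged features. PORA was 0.021 without wild type 3 and 6, TT10 was 0.0025 without wild type 2 and 5, and MYB12 was 0.014 without wild type 2 (-0.29 to 0.014 without 1 array in turn) and 0.22 without wild type 2 and 5. Where no cause is given, the cause was not tested. The pairs of wild-type arrays left out were chosen after seeing the data. Among dim features signal over background limits what can be detected.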

Other observations

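By deviation from the group mean over all 11 arrays, the genes most like TT4 were RPA70B (correlation 0.96), AT5G56710 (0.96), AT4G39860 (0.94), IMD3 (0.93) and ATCG01130 (0.93). The arrays share their normalization and the pairs 3 numbers apart, and the correlation is a description only. Of these 5 genes AT4G39860 was called higher on the labelled mutant arrays (0.24, limma adjusted p = 0.0162), and the other 4 were not called.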
